A study of Papio anubis with 24 samples.

Results

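The miRNAs hsa-miR-26a-5p, hsa-miR-26b-5p, hsa-miR-26b-3p and hsa-miR-101-3p, given below without the prefix for the human reference, were followed in endometriotic lesions and eutopic endometria of baboons (Papio anubis). They are 4 of the 2656 mature miRNAs named in the deposited small RNA count table. They were taken by name, with earlier results of these data known. Where a mature miRNA stood under several precursor hairpins, the precursor row with the highest total was used. The table held 24 libraries from 12 female animals, each giving 1 lesion (ectopic tissue) and its own eutopic endometrium (the lining of the uterus). Spontaneous disease, for which the sources used here name no induction, gave 4 lesions and 4 eutopic endometria. Induced disease followed intraperitoneal inoculation with menstrual tissue and gave 8 lesions and 8 eutopic endometria, collected 15 months after induction. No endometrium of a disease-free animal was analysed here, and ages were not given in the sources used here. Both tissues were sampled whole, so fewer cells of a type and less RNA per cell cannot be told apart.

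A miRNA guides Argonaute proteins to partly matching sites in messenger RNAs through its seed, the bases near its 5′ end, and lowers the output of those messages. miR-26a-5p and miR-26b-5p carry the same seed, and in humans their hairpins lie in introns of the CTDSPL, CTDSP2 and CTDSP1 phosphatase genes. miR-26 and miR-101-3p are both known repressors of EZH2, the Polycomb enzyme that methylates histone H3 and keeps genes silent, and EZH2 levels decline in human endometrial stromal cells as they decidualize. miR-26b-3p is the opposite strand of the miR-26b hairpin, which is usually degraded once the 5p strand has been loaded.

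Library totals were 2592999 to 7573913 counts. Levels are given in CPM, counts scaled to a common library size. A level of 3 counts lay at 0.396 to 1.16 CPM, a limit set by counting error alone, and the rarest of the 4 miRNAs, miR-26b-3p, had at least 56 counts in every library. The smooth muscle miRNA miR-143-3p took 13.9 to 49.9% of the counts in spontaneous lesions and 10.1 to 31.0% in their eutopic endometria. In induced disease it took 17.2 to 71.7% of lesion counts and 4.88 to 12.3% of eutopic counts. Levels were therefore scaled with TMM (trimmed mean of M values) factors, which centre each library on the bulk of its miRNAs. With library totals alone, the median log2 fold change of all miRNAs tested was −0.65 in spontaneous disease and −1.10 in induced disease, against −0.09 and −0.14 with TMM. Fold changes are therefore also given relative to that median.

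The 4 miRNAs together took 3.35 to 9.73% of the counts of a library. miR-26a-5p was the fourth most abundant miRNA of the table (rank 4 by mean CPM over the 24 libraries) and alone made up 5.48% ± 1.44 (SD, n = 24) of the counts. miR-26b-5p ranked 26 with a mean of 4832 CPM, miR-101-3p ranked 34 with 3049 CPM and miR-26b-3p ranked 218 with 33.9 CPM. Mature miRNAs of the same length class need no length correction, but ligation during library preparation can favour some sequences, so these ranks order read counts rather than molecules. The precursor chosen hardly mattered, since the miR-26a-1 row lay 0.0162% below the miR-26a-2 row in total, and the miR-101-1 row 2.22% below that of miR-101-2. miR-26a-5p and miR-26b-5p are near-identical, and how reads matching both were assigned is not given in the sources used here, so their split is uncertain.

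In induced disease, all 4 miRNAs rose in lesions after TMM scaling, led by miR-101-3p at 2.68-fold, although with library totals the 3 miR-26 strands lay slightly below their eutopic level. Relative to the median of all miRNAs the 4 were higher. All 4 passed the edgeR quasi-likelihood test, Benjamini-Hochberg adjusted over 507 miRNAs, of which 43.8% passed, 20.7% as higher and 23.1% as lower. With library totals the balance over all miRNAs was far from even, as 6.51% passed as higher and 58% as lower. A call by itself was therefore common among all miRNAs. Each of the 4 was higher in the lesion of 8 of 8 animals, which was so for 16% of the miRNAs tested (81 of 507).

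miR-26a-5p stood at 48828 to 106974 CPM in induced lesions (median 61913), against 23813 to 51064 CPM in the matched eutopic endometria (median 39865). The groups overlapped only at their edge, between the lowest lesion and the highest endometrium. Group means were 67712 ± 19307 CPM in lesions and 37208 ± 9967 CPM in eutopic endometria (SD, n = 8 each). The log2 fold change was 0.86 (standard error 0.20, 95% confidence interval 0.42 to 1.30, edgeR quasi-likelihood adjusted p = 0.00582). Within animals the lesion exceeded the endometrium by 1.12-fold in PA7223 to 2.73-fold in PA7524. With library totals these folds were 0.661 and 1.09.

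miR-26b-5p, which has the same seed at a far lower count, stood at 4428 to 7697 CPM in induced lesions (median 5215) and at 1488 to 4785 CPM in eutopic endometria (median 3506). Its log2 fold change was 0.81 (standard error 0.23, interval 0.29 to 1.33, edgeR quasi-likelihood adjusted p = 0.0175). A single eutopic endometrium exceeded the lowest lesions, and the lowest endometrium, that of PA7539, lay well under the other 7. The fold within animals was 1.06 in PA7457 to 5.09 in PA7539 (0.761 and 1.17 with library totals). Without PA7539 the log2 fold change was 0.61 (edgeR quasi-likelihood adjusted p = 0.0114).

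The opposite strand miR-26b-3p moved least. It stood at 37.8 to 57.5 CPM in induced lesions (median 41.0) and at 22.0 to 39.4 CPM in eutopic endometria (median 28.6), and only the highest endometrium reached into the range of the lesions. Its log2 fold change was 0.59 (standard error 0.16, interval 0.24 to 0.95, edgeR quasi-likelihood adjusted p = 0.0136). Without the filter on low counts it no longer passed (0.58, adjusted p = 0.0823).

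miR-101-3p had the widest gap. It stood at 2279 to 7488 CPM in induced lesions (median 3892), against 367 to 3028 CPM in eutopic endometria (median 1498). The ranges overlapped, but within animals the lesion was higher by 1.43-fold in PA7255 to 13.4-fold in PA7539. The log2 fold change was 1.42 (standard error 0.33, interval 0.69 to 2.15, edgeR quasi-likelihood adjusted p = 0.00611), which ranked 50 of 507. The extreme pair, PA7539, joined the library with the fewest counts of the series (its endometrium) to the lesion with the highest share of miR-143-3p. Without it the log2 fold change was 1.14 (edgeR quasi-likelihood adjusted p = 0.0017). With library totals the lesion stood at 0.553-fold of the endometrium in PA7255 and 3.08-fold in PA7539.

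**Figure D1:**
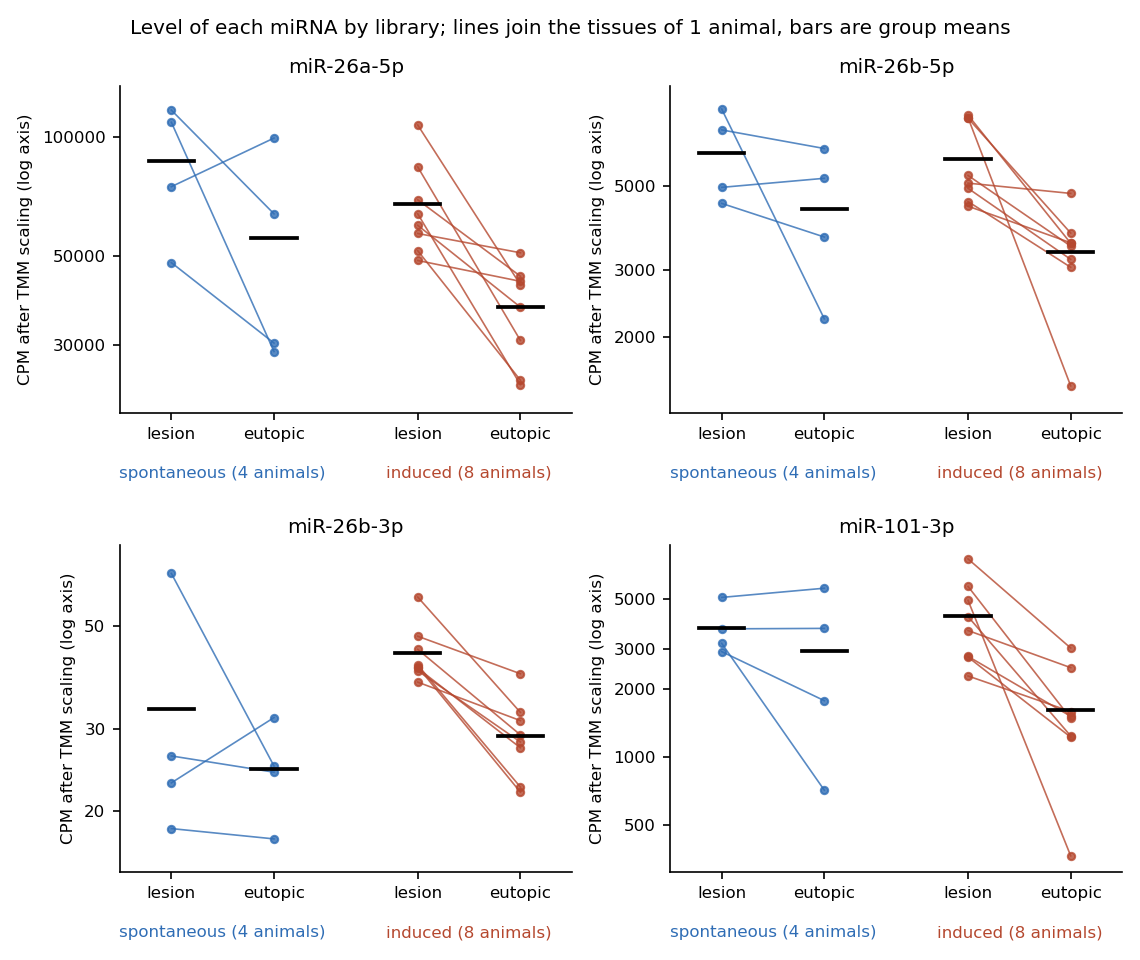
Level of each miRNA in every library, in CPM after TMM scaling on a log axis, with spontaneous disease (4 animals) on the left and induced disease (8 animals) on the right of each panel. Points are libraries, lines join lesion and eutopic endometrium of 1 animal and black bars are group means. All 8 induced pairs fall from lesion to endometrium in each panel on this scale, and with library totals this held in 4 of 8 pairs for miR-26a-5p, 3 of 8 for each miR-26b strand and 7 of 8 for miR-101-3p.

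The direction of the miR-26 strands depended on the scale. With library totals in place of TMM, the induced log2 fold changes were −0.13 for miR-26a-5p, −0.16 for miR-26b-5p and −0.39 for miR-26b-3p, and none passed (edgeR quasi-likelihood adjusted p = 0.583, 0.464 and 0.229). miR-101-3p remained above zero at 0.49 but did not pass either (adjusted p = 0.112). As a share of all counts, miR-26a-5p took 5.14% ± 1.81 in induced lesions and 5.38% ± 0.89 in eutopic endometria (SD, n = 8 each). miR-101-3p took 0.314% ± 0.134 and 0.230% ± 0.105.

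A change of scale moves all miRNAs about alike, so the distance of a miRNA from the median of all is nearly the same on both scales by construction and describes its place among the miRNAs tested. It does not bear on whether the level itself was higher. In induced disease miR-26a-5p lay 1.005 above the median log2 fold change with TMM and 0.97 above it with library totals. miR-26b-5p lay 0.95 and 0.94 above it, miR-26b-3p 0.74 and 0.71, and miR-101-3p 1.57 and 1.59. Leaving only miR-143-3p and miR-10b-5p, the pair with the most counts, out of the library totals gave values in between, with miR-26a-5p and miR-101-3p still passing (0.44 and 1.02) and miR-26b-5p and miR-26b-3p not (0.40 and 0.17, edgeR quasi-likelihood adjusted p = 0.120 and 0.422).

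**Figure D2:**
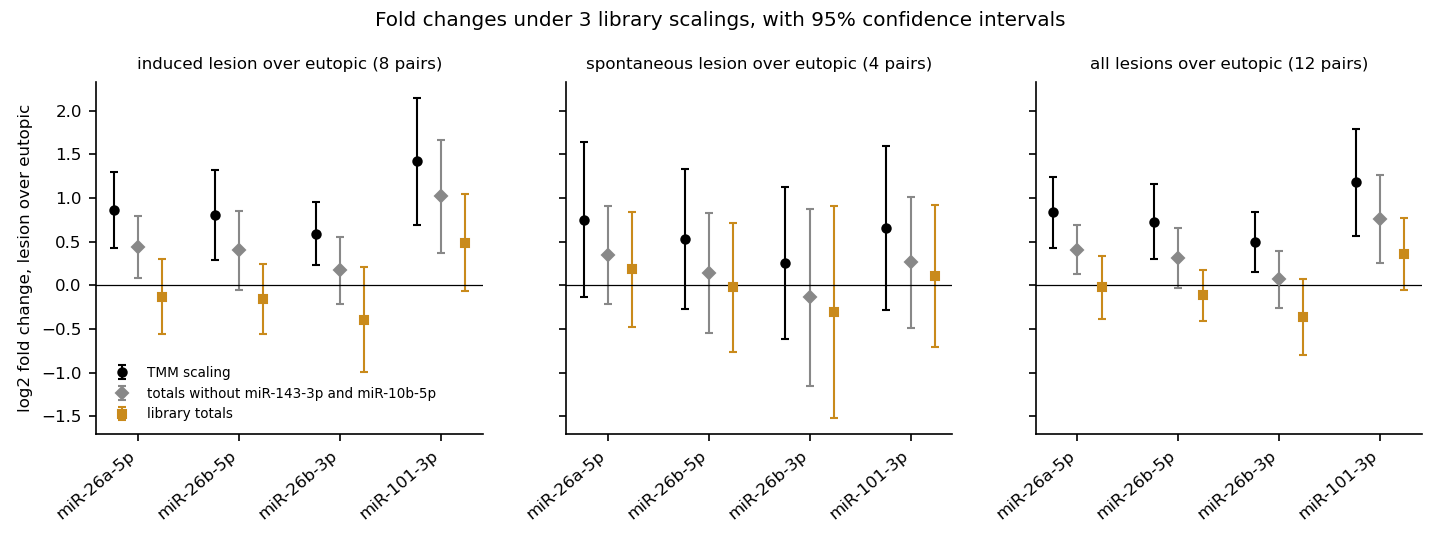
Log2 fold change of lesion over eutopic endometrium for each miRNA with its 95% confidence interval, in induced (8 pairs), spontaneous (4 pairs) and all 12 pairs, under 3 ways of scaling libraries. Black circles are TMM, grey diamonds library totals without miR-143-3p and miR-10b-5p, and brown squares plain library totals. In induced disease the intervals for TMM lie above zero for all 4 miRNAs, while those for plain totals include zero for each, with the 3 miR-26 strands below it.

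In spontaneous disease the 4 miRNAs also stood higher in lesions on average after TMM scaling, but the 4 pairs differed widely and none of the 4 passed. Only 1 miRNA of 485 passed here (0.206%), and 0 of the 4 was higher in the lesion of all 4 animals, which was so for 13.6% of the miRNAs tested. By the quasi-likelihood test 0 of the 4 had an unadjusted p under 0.05, and edgeR-robust and DESeq2 called none of them. miR-26a-5p had the largest difference of the 4 here, 0.75 on the log2 scale (standard error 0.37, interval −0.13 to 1.64, edgeR quasi-likelihood adjusted p = 0.293).

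miR-26a-5p stood at 74861, 116577, 48231 and 108670 CPM in the spontaneous lesions of PA5655, PA6303, PA6627 and PA6762, against 99182, 63962, 30273 and 28831 CPM in their eutopic endometria. It was thus higher in 3 of 4 lesions and lower in that of PA5655, whose level was the highest of any endometrium of the series. After TMM scaling the fold within animals was 0.755 in PA5655 and up to 3.77 in PA6762. The log2 fold change on this scale ranged between 0.39 without PA6762 and 1.22 without PA5655. With library totals the folds were 0.633 in PA5655 and 1.13 in PA6762, and up to 1.84 in PA6303. The TMM factors of PA6762 were 0.502 for the lesion and 1.68 for the endometrium.

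miR-26b-5p stood at 7035, 4964, 4504 and 7985 CPM in the lesions of the same animals, in that order, against 6284, 5245, 3673 and 2235 CPM in their eutopic endometria. The tissues overlapped, and after TMM scaling the gap was wide only in PA6762 (3.57-fold). The log2 fold change on this scale was 0.53 (interval −0.28 to 1.33, edgeR quasi-likelihood adjusted p = 0.388). With library totals the fold of PA6762 was 1.07, and miR-26b-5p was lower in 3 of 4 lesions. Its opposite strand miR-26b-3p stood at 26.3, 23.0, 18.3 and 64.7 CPM in lesions and at 24.2, 31.7, 17.4 and 24.98 CPM in eutopic endometria. After TMM scaling PA6762 alone again set the mean. The log2 fold change was 0.26 (interval −0.61 to 1.13) with it and −0.087 without it. With library totals miR-26b-3p was lower in 4 of 4 lesions.

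miR-101-3p stood at 5064, 3679, 2920 and 3176 CPM in the spontaneous lesions, against 5560, 3696, 1773 and 714 CPM in the eutopic endometria of the same animals. After TMM scaling the tissues of PA5655 and PA6303 were nearly level, while the lesions of PA6627 and PA6762 were 1.65-fold and 4.45-fold higher. With library totals the folds of these 4 animals, in the same order, were 0.764, 1.004, 1.31 and 1.33. The log2 fold change after TMM scaling was 0.65 (standard error 0.40, interval −0.28 to 1.59, edgeR quasi-likelihood adjusted p = 0.368). On this scale the endometria differed more among themselves (2936 ± 2141 CPM) than the lesions did (3710 ± 956 CPM, SD, n = 4 each). As a share of counts the spreads were closer, at 0.275% ± 0.116 in endometria and 0.284% ± 0.0931 in lesions (SD, n = 4 each).

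**Figure D3:**
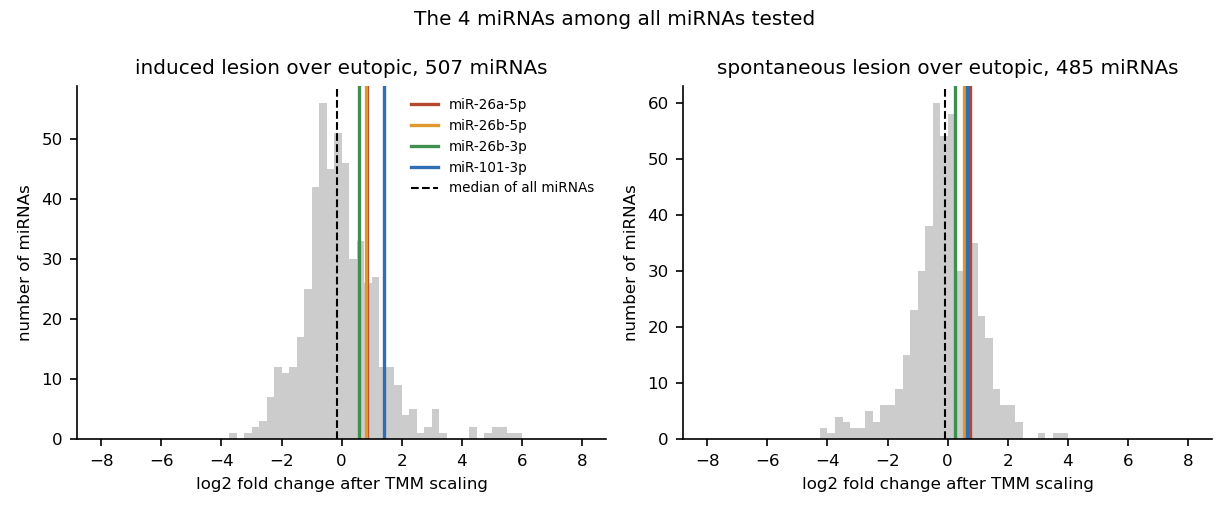
Number of miRNAs by log2 fold change of lesion over eutopic endometrium after TMM scaling, for 507 miRNAs in induced and 485 in spontaneous disease. Coloured lines mark the 4 miRNAs and the dashed line the median of all miRNAs. The 4 lines lie to the right of the median in both panels and inside the bulk of the histogram, with miR-101-3p furthest out at 1.42 in induced disease.

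With the 12 pairs combined, all 4 miRNAs passed after TMM scaling, where 52.8% of 527 miRNAs passed (25.6% as higher and 27.1% as lower). With library totals 7.21% passed as higher and 58.6% as lower, and the miR-26 strands were at −0.024, −0.11 and −0.36. These values rest in part on the induced pairs described above. miR-101-3p had a log2 fold change of 1.18 (standard error 0.29, edgeR quasi-likelihood adjusted p = 0.00364), miR-26a-5p of 0.83 (0.19, adjusted p = 0.00223), miR-26b-5p of 0.73 (0.20, adjusted p = 0.008) and miR-26b-3p of 0.50 (0.16, adjusted p = 0.0178). The lesion was higher in 11 of 12 animals for each miR-26 strand and in 10 of 12 for miR-101-3p, while 18% of the miRNAs tested were higher in at least 11, 24.9% in at least 10 and 5.88% in all. With library totals the lesion was higher in 7 of 12 animals for miR-26a-5p, 4 for miR-26b-5p, 3 for miR-26b-3p and 10 for miR-101-3p. The call of miR-26b-3p was lost without PA7258 (0.43, adjusted p = 0.0505).

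Comparing spontaneous with induced disease asks whether the induced model carries the same levels of these miRNAs. After TMM scaling, mean levels of miR-26a-5p ran in the order of spontaneous lesions (87085 ± 31595 CPM, n = 4), induced lesions (67712 ± 19307, n = 8), spontaneous endometria (55562 ± 33303, n = 4) and induced endometria (37208 ± 9967, SD, n = 8). The ranges of neighbouring groups in this order overlapped. miR-26b-5p had the same order of groups, while miR-101-3p was highest in induced lesions. miR-26b-3p fell out of line, with spontaneous lesions (33.1 ± 21.3 CPM) below induced lesions (43.7 ± 6.32 CPM). Its spontaneous endometria (24.6 ± 5.85 CPM) lay below those of induced disease (29.0 ± 5.62 CPM). As a share of counts, miR-26a-5p averaged 6.34% in spontaneous lesions, 5.48% in spontaneous endometria, 5.38% in induced endometria and 5.14% in induced lesions.

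Between spontaneous and induced lesions no log2 difference passed. They were 0.40 for miR-26a-5p (interval −0.19 to 0.996), 0.09 for miR-26b-5p (−0.43 to 0.62), −0.37 for miR-26b-3p (−1.06 to 0.33) and −0.14 for miR-101-3p (−0.83 to 0.55), each with an edgeR quasi-likelihood adjusted p = 0.98. None of 467 miRNAs passed here (0%), with 37 at an unadjusted p under 0.05, and edgeR-robust called 7 and DESeq2 1. The 4 miRNAs were not among these by any of the tools. The intervals leave room for a level about 2-fold higher for miR-26a-5p and about 2-fold lower for miR-26b-3p. Those of miR-26b-5p and miR-101-3p reach less far in either direction.

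Between spontaneous and induced eutopic endometria the largest difference of the 4 was that of miR-101-3p, at 2936 ± 2141 CPM (SD, n = 4) against 1615 ± 813 CPM (SD, n = 8). This was a log2 difference of 0.87 (interval −0.14 to 1.89, edgeR quasi-likelihood adjusted p = 0.542), and without PA5655 it was 0.35. miR-26a-5p differed by 0.58, miR-26b-5p by 0.38 and miR-26b-3p by −0.23 (adjusted p = 0.542, 0.638 and 0.729 in the same edgeR fit). None of 507 miRNAs passed (0%), 54 had an unadjusted p under 0.05, and edgeR-robust called 11 and DESeq2 3.

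The change from endometrium to lesion itself was also compared between the diseases. The difference of log2 fold changes, spontaneous minus induced, was −0.78 for miR-101-3p (interval −2.04 to 0.48, edgeR quasi-likelihood adjusted p = 0.956), −0.11 for miR-26a-5p, −0.29 for miR-26b-5p and −0.33 for miR-26b-3p. None of the 527 miRNAs passed (0%), 16 had an unadjusted p under 0.05, and edgeR-robust and DESeq2 each called 3. The passing of all 4 in induced and of none in spontaneous disease is thus not a tested difference between the diseases.

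Ratios of counts within a library cannot move with library scaling, so they show whether the 4 miRNAs kept step with each other. miR-26b-5p stood at 8.86% ± 1.47 of miR-26a-5p in induced lesions and 9.18% ± 2.22 in induced endometria (SD, n = 8 each), and at 7.59% ± 2.41 in spontaneous lesions and 8.61% ± 2.48 in spontaneous endometria (SD, n = 4 each). In log2 terms the induced difference was −0.03 and the spontaneous one −0.21 (two-sided exact sign-flip permutation, Benjamini-Hochberg adjusted p = 0.954 and 0.767, with 8 and 4 pairs). The smallest p that 4 pairs allow is 0.125.

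miR-101-3p stood at 6.10% ± 1.31 of miR-26a-5p in induced lesions, against 4.28% ± 1.78 in induced endometria (SD, n = 8 each). It was higher in 5 of 8 lesions, by 0.61 on the log2 scale on average (exact sign-flip permutation p = 0.109, Benjamini-Hochberg adjusted p = 0.374 over 15 ratio tests), and by 0.37 without PA7539. In spontaneous disease it stood at 6.76, 3.16, 6.05 and 2.92% in the lesions of PA5655, PA6303, PA6627 and PA6762, against 5.61, 5.78, 5.86 and 2.48% in their endometria. The lesion thus exceeded the endometrium in 3 of 4 animals and lay far below it in PA6303.

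The strands of the miR-26b hairpin, which are cut from 1 precursor, gave the smallest p of the 15 tests. miR-26b-3p stood at 0.373, 0.463, 0.407 and 0.810% of miR-26b-5p in the spontaneous lesions of PA5655, PA6303, PA6627 and PA6762, and at 0.586 to 0.921% in the 8 induced lesions (median 0.766). Of the spontaneous lesions, 3 lay below every induced one. The log2 difference was −0.62 (two-sided exact permutation p = 0.0141, Benjamini-Hochberg adjusted p = 0.212), which did not hold after adjustment. The gap was not particular to lesions, as the endometria differed by −0.57 (two-sided exact permutation p = 0.149, adjusted p = 0.374). They stood at 0.386, 0.605, 0.475 and 1.12% in the same spontaneous animals and at 0.588 to 1.96% in induced disease. Within spontaneous disease the ratio was also lower in the lesion than in the endometrium of all 4 animals, by 0.28 on the log2 scale on average (exact sign-flip permutation p = 0.125, the smallest that 4 pairs allow).

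**Figure D4:**
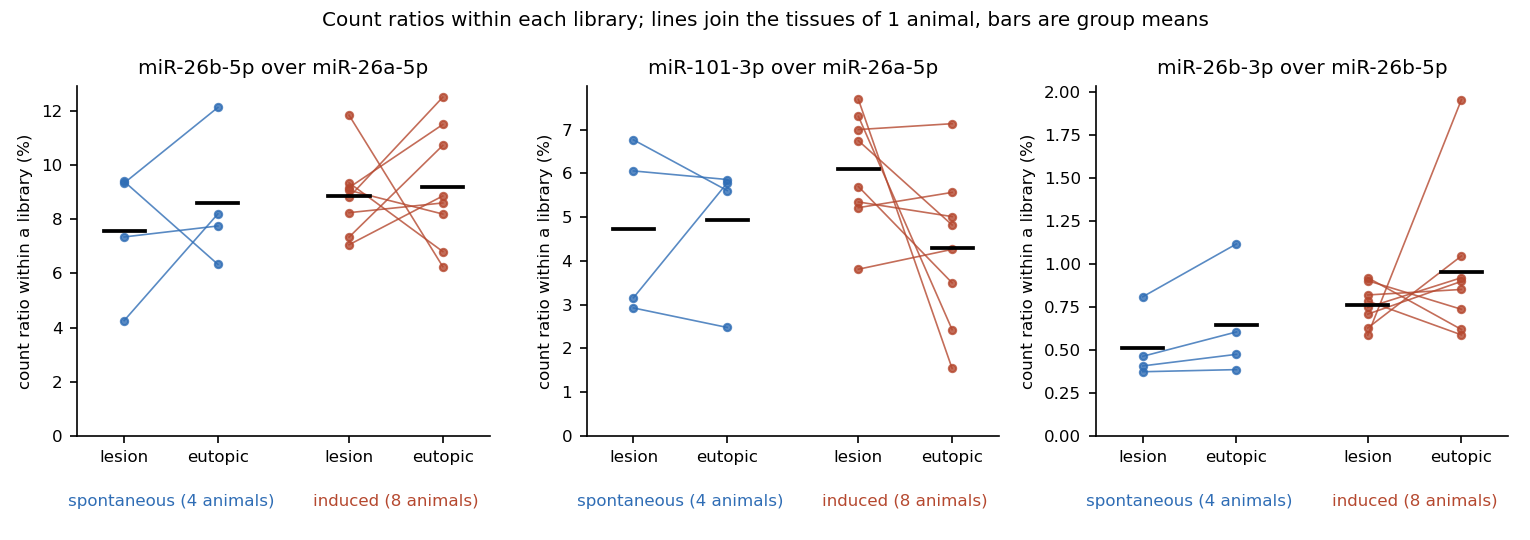
Ratio of the counts of a pair of miRNAs within each library, in percent on a linear axis from 0, for miR-26b-5p over miR-26a-5p, miR-101-3p over miR-26a-5p and miR-26b-3p over miR-26b-5p. Spontaneous disease (4 animals) is on the left and induced disease (8 animals) on the right of each panel, lines join the tissues of 1 animal and black bars are group means. The third panel shows 3 of 4 spontaneous lesions below every induced lesion, and a single induced endometrium, that of PA7539, at 1.96%.

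The other strands of the same hairpins were rare, and those that could be tested were higher in induced lesions after TMM scaling. miR-101-5p, the opposite strand of miR-101-3p, summed to 1380 counts over all libraries against 338933 for miR-101-3p. It stood at 18.1 ± 8.59 CPM in induced lesions and 6.86 ± 3.78 CPM in induced endometria (SD, n = 8 each), and its log2 fold change was 1.39 (edgeR quasi-likelihood adjusted p = 0.0111). miR-26a-2-3p stood at 6.54 ± 1.75 CPM in induced lesions and 3.42 ± 1.78 CPM in induced endometria (SD, n = 8 each), and its log2 fold change was 0.99 (adjusted p = 0.0341 in the same edgeR fit). These were the 2 of 4 other strands with enough counts to test, and neither passed in spontaneous disease (0.88 and 0.18). With library totals neither passed in induced disease either (0.47 and 0.038, edgeR quasi-likelihood adjusted p = 0.23 and 0.92). Because miR-26a-5p of both hairpins is identical, only the 3p strands tell the miR-26a hairpins apart. miR-26a-2-3p had 584 counts in all and miR-26a-1-3p 77, at 0 to 13 counts per library.

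Other miRNAs that share a seed added little. miR-1297, with the seed of miR-26, had 3 counts in the whole series, and miR-4465, likewise, had 0. miR-144-3p, a red cell miRNA whose seed overlaps that of miR-101-3p, rose in induced lesions with a log2 fold change of 4.46 (edgeR quasi-likelihood adjusted p = 0.00119), yet averaged only 55.1 CPM over the 24 libraries.

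Among 10 tested miRNAs reported elsewhere to repress EZH2, not counting the 4 described here, 4 were higher and 0 lower in induced lesions. Over all miRNAs tested, 20.7% were higher and 23.1% lower. The median log2 fold change of the 10 was 0.31, against −0.14 over all miRNAs. The higher ones were let-7c-5p (2.16), miR-98-5p (0.66), miR-139-5p (1.59) and miR-138-5p (3.04), while the abundant let-7a-5p (0.23), miR-30d-5p (−0.07) and let-7b-5p (0.03) did not pass. With library totals 2 were higher and 6 lower (median −0.68, against −1.10 over all miRNAs), where 6.51% of all miRNAs were higher and 58% lower. In spontaneous disease 0 of the 10 passed the edgeR quasi-likelihood test, 2 had an unadjusted p under 0.05, and edgeR-robust and DESeq2 each called 2 as higher. Fold changes named in this paragraph and the next are after TMM scaling.

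Of all miRNAs tested in induced disease, 20.7% were higher and 23.1% lower. Of 6 miRNAs reported to be silenced by EZH2, 5 were lower and 0 higher in induced lesions (median −1.26). They were miR-181a-5p (−0.84), miR-181b-5p (−1.24), miR-200b-3p (−1.82), miR-200c-3p (−2.33) and miR-203a-3p (−1.27), and miR-31-5p did not pass (−0.53). Of these, miR-200b-3p, miR-200c-3p and miR-203a-3p are also epithelial markers. Library totals gave the same count of 5 lower and 0 higher (median −2.19), where 58% of all miRNAs were lower. Of 18 other miRNAs repressed by the oncoprotein MYC, as miR-26a is, 6 were higher (20.7% over all miRNAs) and 0 lower (median 0.28). They were miR-22-3p (1.22), miR-29a-3p (1.69), miR-29b-3p (1.68), miR-29c-3p (2.23), miR-34a-5p (1.14) and miR-146a-5p (1.65), while the abundant let-7a-5p (0.23), let-7f-5p (0.39) and miR-30d-5p (−0.07) did not pass. With library totals 2 of the 18 were higher and 11 lower (median −0.70), against 6.51% higher and 58% lower over all miRNAs. Of the 6 tested miRNAs from the cluster of miR-17 and miR-92a, which MYC induces, 0 passed in induced lesions and 0 had an unadjusted p under 0.05 by the edgeR quasi-likelihood test, and edgeR-robust and DESeq2 called 0. With library totals all 6 were lower, at a median of −0.96 that lay near the −1.10 of all miRNAs. miR-92a-3p was at −0.30 and miR-19b-3p at 0.31.

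The miRNAs whose levels ran most nearly parallel to those of the 4 were taken from 139 others with a mean of at least 100 CPM, by Spearman correlation of log2 CPM over the 24 libraries. These points pool both tissues and share the library and its TMM factor, and each value is a description. miR-101-3p was nearest to miR-29a-3p (rho = 0.95) and miR-29c-3p (0.93), and these held with library totals (0.85 and 0.83). The third, miR-145-3p, a smooth muscle miRNA, had 0.84 with TMM and 0.28 with totals. With TMM it had 0.51 within lesions and 0.78 within endometria. For miR-29a-3p these were 0.88 and 0.92, and for miR-29c-3p 0.90 and 0.94. miR-26b-5p was nearest to the muscle miRNAs miR-143-3p (0.94), miR-145-3p (0.94) and miR-133a-3p (0.92). Totals gave −0.32, −0.39 and −0.30, so this likeness turned round with the scale. With TMM the values were 0.84, 0.86 and 0.92 within lesions and 0.86, 0.82 and 0.62 within endometria.

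miR-26a-5p was nearest to miR-30e-3p (0.89), miR-29a-3p (0.88) and miR-99a-5p (0.88), with 0.31, 0.52 and 0.13 on totals. With TMM these pairs had 0.66, 0.79 and 0.62 within lesions and 0.82, 0.84 and 0.81 within endometria. miR-26b-3p was nearest to miR-320a-3p (0.78), let-7e-5p (0.75) and miR-125b-5p (0.73), with 0.83, 0.76 and 0.11 on totals. Its pairs had 0.74, 0.70 and 0.85 within lesions and 0.80, 0.46 and 0.45 within endometria with TMM. Among the 4 themselves, miR-26b-5p ran with miR-101-3p (0.92) and with miR-26a-5p (0.90), and with its own opposite strand miR-26b-3p at 0.53. Within the 12 lesions these values were 0.70, 0.71 and 0.61, and within the 12 endometria 0.95, 0.81 and 0.09.

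Markers of tissue make-up moved in the same comparisons. Over all miRNAs tested in induced disease, 20.7% were higher and 23.1% lower with TMM, and 6.51% and 58% with library totals. In induced lesions 7 of 7 tested epithelial miRNAs were lower, and the 8 in the table summed to 490 to 7590 CPM in lesions and 6313 to 20177 CPM in endometria. Both smooth muscle miRNAs, miR-143-3p and miR-145-5p, were higher (log2 fold changes 3.01 and 3.13), at a sum of 161967 to 1652900 CPM in lesions and 26433 to 92141 CPM in endometria (TMM-scaled levels of a library need not add up to a fixed total). Also higher were 3 of 4 striated muscle, 2 of 2 endothelial, 2 of 5 leukocyte and 4 of 4 erythroid miRNAs, of which library totals left both smooth muscle, 3 striated muscle, 0 endothelial, 1 leukocyte and 3 erythroid miRNAs as higher. Endothelial miRNAs summed to 6227 to 13726 CPM in induced lesions and 1465 to 6884 CPM in induced endometria, leukocyte miRNAs to 498 to 3524 and 349 to 1077 CPM, erythroid miRNAs to 960 to 32583 and 282 to 1578 CPM, and striated muscle miRNAs to 48.2 to 7338 and 13.01 to 118 CPM. The skeletal and cardiac markers miR-206 and miR-208b-3p had no count in induced endometria.

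In spontaneous disease epithelial miRNAs summed to 237 to 2233 CPM in lesions and 5022 to 13846 CPM in endometria, smooth muscle miRNAs to 107045 to 984290 and 61638 to 432125 CPM, endothelial miRNAs to 10461 to 18513 and 2508 to 11938 CPM, leukocyte miRNAs to 1051 to 11852 and 390 to 1972 CPM, erythroid miRNAs to 907 to 42365 and 242 to 19376 CPM, and striated muscle miRNAs to 69.7 to 2239 and 8.78 to 861 CPM. Among the spontaneous endometria, smooth muscle miRNAs summed to 432125 CPM in PA5655 and 325907 in PA6303, against 61638 in PA6627 and 64500 in PA6762. Striated muscle miRNAs summed to 861, 556, 19.2 and 8.78 CPM in the same order. Of all these markers, 1 erythroid miRNA passed the quasi-likelihood test in spontaneous disease. The 7 epithelial miRNAs tested all had an unadjusted p under 0.05. All were called lower by edgeR-robust, by DESeq2 and with library totals, which called 28, 26 and 14 of 485 miRNAs lower. The striated muscle miRNAs miR-206 and miR-208b-3p had no count in either tissue. Epithelial markers were thus present in every library and lower in every spontaneous lesion than in any spontaneous endometrium. The part of these shifts in the levels of the 4 miRNAs was not tested.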

How the data were processed

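Small RNA was sequenced from lesions and eutopic endometria of 12 baboons. Per the labels, the authors trimmed reads with Trim Galore 0.3.3, mapped them to human miRNAs of miRBase 22 with miRDeep2 0.0.7 and tested with edgeR 3.22.5 (edgeR-robust), so baboon miRNAs whose sequence departs from the human entry may have gone uncounted. The deposited values are raw counts per mature miRNA and precursor. Here, in R 4.3.3 with edgeR 4.0.16, each comparison took its own libraries, the miRNAs reaching 2 CPM in 2 or more of these, and TMM factors. The robust quasi-likelihood test was run on all miRNAs, with Benjamini-Hochberg adjustment and a threshold of 0.05. Fits of lesion against eutopic endometrium had the animal as a block, since both tissues came from 1 animal (correlation of deviations −0.14 to 0.48, median 0.18, above 0.1 in 7 of 12 animals). Count ratios (prior count 1) were tested with two-sided exact permutations. DESeq2 1.42.0, other scalings, filters and left-out animals were alternatives, and the test was checked on simulated data. Libraries of a group differed beyond counting noise. p-values of fits with the animal as a block and of paired ratio tests rest on how the difference within an animal varied over animals. Those of spontaneous against induced tissue rest on the spread between animals. The text names the 4 miRNAs, other strands and seed sharers, up to 4 of each list by mean CPM and the 3 nearest miRNAs of each. Further list members that passed were named after their values were seen. Members and lists were chosen with earlier results of these data known.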

Additional observations from a re-analysis of the deposited data

Results flagged for a closer look

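In 28 groups of 4 to 8 libraries checked for a library far from the rest of its group, 3 stood apart, where chance alone would give about 1 in 20 groups. miR-26b-3p stood at 1.96% of miR-26b-5p in the induced eutopic endometrium of PA7539, against 0.588 to 1.05% in the other 7. It rests on 144 counts of miR-26b-3p over 7356 of miR-26b-5p, in the library with the fewest counts of the series. After TMM scaling miR-26b-3p stood at 64.7 CPM in the spontaneous lesion of PA6762, against 18.3 to 26.3 CPM in the other 3. With library totals the gap was smaller, at 32.5 CPM against 15.9 to 24.1 CPM. miR-101-3p stood at 2.48% of miR-26a-5p in the spontaneous eutopic endometrium of PA6762, against 5.61 to 5.86% in the other 3.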

How the results depend on the processing

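The 4 induced calls after TMM held under DESeq2's or upper quartile factors, filterByExpr, precursors summed, both other tests (edgeR-robust and DESeq2's Wald test), no replicate block and each animal left out. Library totals turned round miR-26a-5p (−0.13 induced, −0.024 combined), miR-26b-5p (−0.16, −0.11, and −0.025 in spontaneous disease) and miR-26b-3p (−0.39, −0.36, −0.30), miR-26b-5p between endometria (−0.080), and the differences between diseases of miR-26a-5p, miR-26b-5p and miR-26b-3p (0.31, 0.13, 0.087). With them miR-101-3p lost its call (0.49 induced, 0.36 combined). The cause was not tested beyond the scales given.

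Totals without miR-143-3p and miR-10b-5p, chosen after seeing the data as was the likeness on totals, turned round miR-26b-3p in spontaneous disease (−0.14) and miR-26b-5p between lesions (−0.017), and upper quartile factors miR-101-3p between lesions (0.0094). Without the filter miR-26b-3p lost its calls (0.58 induced, 0.48 combined).

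Leaving out 1 animal gave induced ranges of 0.77 to 0.97 for miR-26a-5p, 0.61 to 0.92 for miR-26b-5p, 0.56 to 0.66 for miR-26b-3p and 1.14 to 1.58 for miR-101-3p. It turned round miR-26b-3p in spontaneous disease (−0.087 to 0.43), miR-26b-5p (−0.060 to 0.18) and miR-101-3p (−0.35 to 0.016) between lesions, and miR-26a-5p between diseases (−0.48 to 0.30). Log2 ratios that changed sign were miR-26b-5p over miR-26a-5p (induced −0.17 to 0.044, spontaneous −0.47 to 0.038, endometria −0.28 to 0.036) and miR-101-3p over miR-26a-5p in spontaneous disease (−0.20 to 0.19).

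Over all miRNAs, library totals moved the calls from 105 higher and 117 lower to 33 and 294 in induced disease (327 in all) and from 135 and 143 to 38 and 309 combined (347), and totals without the 2 miRNAs gave 76 and 223, and 79 and 250. In spontaneous disease 1 passed with TMM, 0 with DESeq2's or upper quartile factors, filterByExpr, precursors summed, no replicate block or any animal left out (0 to 0), 14 with library totals (all lower), 16 with totals without the 2 miRNAs, 68 with no filter, 45 by edgeR-robust and 48 by DESeq2's Wald test. Those 2 tests called 7 and 1 between lesions, 11 and 3 between endometria (0 to 8 with 1 animal left out), and 3 and 3 for the difference between diseases, where the quasi-likelihood test called 0. Without the block, counts were 202 against 222 in induced disease and 256 against 278 combined, and no call of the 4 miRNAs changed. With 4 spontaneous pairs, the intervals of all 4 miRNAs reach from below zero to above a 2-fold rise.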
